A study of Mus musculus with 8 samples.

Results

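A Cas9-broken end on chromosome 14 was followed to its joining partners in Neuro-2a cells, a mouse neuroblastoma line, with and without extra normal ataxin-7. Of the 8 libraries in the series, the 2 with the most reads were compared, both from bait site 1. They were chosen by their labels, with earlier results of these data known. Every junction of their on-cut and off-cut lists was used, 5542 distinct junctions in one library and 3873 in the other. The 10Q library came from cells transfected with plasmids for ataxin-7 with 10 glutamines, SpCas9 and the site 1 sgRNA. The sgRNA-only library came from cells given SpCas9 and the same sgRNA, and its label lists no ataxin-7 plasmid and no substitute for it. Another library, with SpCas9, a non-targeting sgRNA and the site 1 bait primer, served as background. In all groups the proteins came from transient plasmids on top of the cells' own ataxin-7, GFP-positive cells were sorted 48 h after transfection, and 3 transfections were pooled into 1 library. No condition therefore had a replicate library, and every test below compares 2 libraries, not 2 conditions. The design text of the series mentions a quality control with the site 2 and the non-targeting sgRNA and none with site 1 alone, so the identity of the site 1 sgRNA-only library rests on its label. Libraries of DNA joints hold no expression values, so markers of the cell type could not be checked.

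A double-strand break is normally rejoined in place by end joining, often after the ends have lost some sequence, a loss called resection. A broken end can also be joined to another break, on the same chromosome as a deletion, inversion or larger rearrangement, or on another chromosome as a translocation, and breaks that lie near each other along a chromosome meet more often. Ataxin-7 is a subunit of SAGA, a chromatin-modifying complex, and its polyglutamine expansion causes spinocerebellar ataxia type 7. Comparing the 10Q library with the sgRNA-only library asks what goes with normal ataxin-7, without any expansion, although the labels also differ in the plasmids given, and ataxin-7 and plasmid load cannot be told apart.

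The bait is set by a guide and a primer, shown because every junction described below starts from them. In the guide, capitals mark the 12 bases nearest the PAM, where Cas9 pairs most strictly.
site 1 guide: ggtagacaTCAGCGCTGTTG
site 1 bait primer: actaaaaagagcgcccctctttc
The bait end, taken as the commonest 5′ end of on-cut reads in the non-targeting library, lay at position 98168726 of chromosome 14 (mm10). It falls inside the body of Dach1 (chr14:97786846-98169765, transcribed from the minus strand), which encodes a dachshund-family transcription factor, 1039 bp from the gene's start. The cut was not placed on the genome here, so every distance below runs from the bait end. Plus-strand prey downstream of this point, at higher coordinates, ran out of the start of Dach1 into its upstream promoter. Exons and introns were not separated, since the gene table used gives whole gene bodies.

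This promoter lies in one of the stretches that both libraries filled most densely. Its 250 bases before the Dach1 start (chr14:98169766-98170015, GRCm38.p6, RefSeq, minus strand) lay 1040 to 1289 bp from the bait end. Capitals mark the 140 bases at which both libraries had a plus-strand junction at full depth, and show how densely the region was filled.
Dach1 upstream promoter: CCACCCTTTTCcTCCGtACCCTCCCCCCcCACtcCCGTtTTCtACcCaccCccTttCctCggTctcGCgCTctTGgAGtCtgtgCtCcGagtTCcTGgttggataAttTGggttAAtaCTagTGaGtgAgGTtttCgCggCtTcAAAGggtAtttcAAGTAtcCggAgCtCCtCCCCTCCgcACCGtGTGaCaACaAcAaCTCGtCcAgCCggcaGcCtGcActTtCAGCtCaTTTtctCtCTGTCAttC
At equal reads 59.7% of these bases carried a plus-strand junction in the 10Q library (149 of them) and 75.2% in the sgRNA-only library (188). The non-targeting library had 3 plus-strand junctions there. Minus-strand junctions were rare in the same window, 14 in the 10Q library and 17 in the sgRNA-only library. Of the reads of downstream plus-strand junctions within 10 kb at full depth, the window held 10.7% in the 10Q library (678 reads) and 15.1% in the sgRNA-only library (709 reads).

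The 10Q library held 13152 reads, the sgRNA-only library 8812 and the non-targeting library 625. A junction is the chromosome, position and strand of a read's 5′ end, with repeated reads counted once, and reads outside the assembled chromosomes (0.0988% with 10Q, 0.272% with the sgRNA alone) were left out. The 10Q and sgRNA-only libraries were alike in technical makeup, with 2.37 and 2.27 reads per junction, 58.4% and 60.7% of junctions seen in 1 read, and 49.9% and 50.5% of reads at a mapping quality of 30 or more. They shared 0 read names. Reads at the bait end itself made up 3.14% of the 10Q library, 2.16% of the sgRNA-only library and 60.5% of the non-targeting library. Since distinct junctions grow with reads, the 10Q reads were thinned to the 8788 of the sgRNA-only library for all counts below, unless full depth is stated.

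At equal reads the 10Q library held slightly more distinct junctions than the sgRNA-only library. The expected number was 4328 with 10Q against 3873 with the sgRNA alone, a ratio of 1.12, whereas at full depth the ratio was 1.43. A 95% interval of 1.07 to 1.17 at equal reads treats the totals as independent counts. The 10Q total is an expectation of distinct positions after thinning, so that interval is only a rough guide and no test. The excess lay among junctions seen in 1 read: junctions with 2 or more reads numbered 1538 and 1524, a ratio of 1.01. In 100 random draws of the 10Q reads the number ran from 4262 to 4379. These draws show the spread of the thinning alone and are no test of the excess. No test was made, since sequencing effort and the amount of broken DNA cannot be told apart in such a total.

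**Figure D1:**
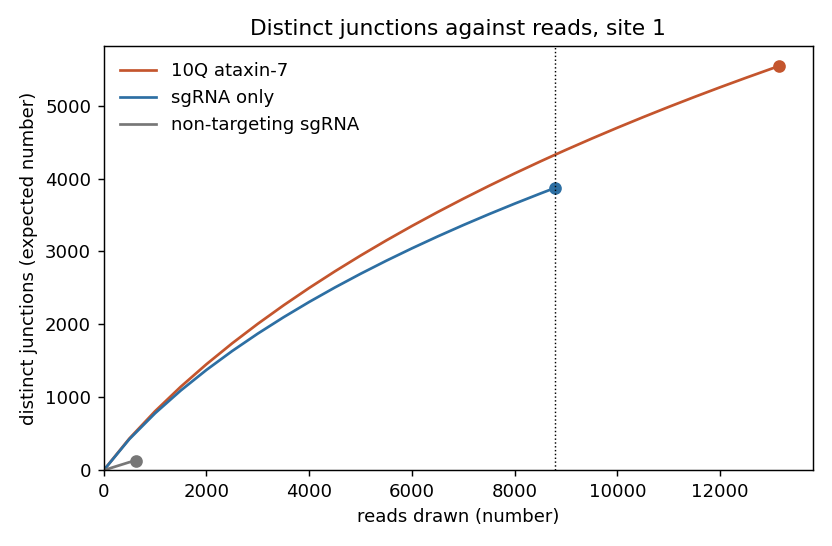
Expected number of distinct junctions (vertical axis) against reads drawn (horizontal axis) in the 3 site 1 libraries, each curve ending in a point at its full depth. At the dotted line, 8788 reads, the 10Q curve stands at 4328 and the sgRNA-only curve at 3873, and the non-targeting library ends at 128.

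Counted by exact position, most joints in both libraries stayed on chromosome 14, and the share that left it was close in the 2 libraries. Prey on other chromosomes made up 38.4% of junctions with 10Q (1662 of 4328, 95% interval 36.9 to 39.9) and 39.3% with the sgRNA alone (1522 of 3873, 37.8 to 40.9). The difference of -0.897 percentage points (-3.01 to 1.22) did not pass the test (adjusted p = 0.466, Fisher exact test). Positions were also merged in chains, each within 5 bp of the next, which counts a dense stretch near the bait as 1 junction. Merged so, 37.2% of chromosome 14 junctions with 10Q and 45.4% with the sgRNA alone lay within 10 kb. Prey on other chromosomes then made up 50.9% with 10Q and 54.1% with the sgRNA alone. That difference of -3.16 points did not pass the test either (adjusted p = 0.0518, Fisher exact test). The non-targeting library stood at 78.9% of 128 junctions. In the off-cut list alone, which holds no reads near the bait, the 10Q share was the lower, 72.9% against 81.0%, and passed the test (adjusted p = 3.56e-09, Fisher exact test). That list leaves out prey near the bait and keeps the distant chromosome 14 prey described next. Its lower 10Q share and the 10Q excess beyond 1 Mb on chromosome 14 are therefore not separate results.

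Within chromosome 14 the 10Q joints were spread further from the break. The share of chromosome 14 junctions within 10 kb of the bait end was 63.8% with 10Q (1702 of 2666, 62.0 to 65.7) and 70.9% with the sgRNA alone (1668 of 2351, 69.1 to 72.8), a difference of -7.11 points (-9.68 to -4.51; adjusted p = 4.28e-07, Fisher exact test). The share beyond 1 Mb was 23.3% with 10Q (621 junctions, 21.7 to 24.9) and 15.2% with the sgRNA alone (358 junctions, 13.8 to 16.7). That difference of 8.07 points (5.89 to 10.2) also passed the test (adjusted p = 4.41e-12, Fisher exact test). Of the 27 chromosome 14 junctions in the non-targeting library, 19 lay within 10 kb and 8 beyond 1 Mb. Both shares have the same denominator, so they are not separate results. The share within 1 kb did not differ past the test, by -0.353 points (adjusted p = 0.784, Fisher exact test), while the share beyond 100 kb differed by 9.34 points and that beyond 5 Mb by 5.69 (adjusted p = 4.15e-14 and 1.39e-07, Fisher exact test). Counted as reads, 13.4% with 10Q and 8.22% with the sgRNA alone lay beyond 1 Mb, a difference of 5.23 points that passed the test (adjusted p = 6.42e-21, Fisher exact test). Repeated reads may be copies of 1 molecule, which could not be checked without molecular identifiers. The p-values over reads, here and below, may therefore be too small and cannot be taken at face value.

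Each distance class was also set against joints to other chromosomes, so that classes beyond 10 kb did not depend on the crowded bases near the bait, and the 10Q excess then began at 100 kb. For every 100 interchromosomal junctions there were 102 within 10 kb with 10Q and 110 with the sgRNA alone, an odds ratio of 0.934 (0.847 to 1.03; adjusted p = 0.174, Fisher exact test). At 10 to 100 kb the 10Q library was also on the lower side, 13.5 against 16.4 per 100 (224 and 250 junctions), an odds ratio of 0.821 that did not pass the test (adjusted p = 0.0585, Fisher exact test). From 100 kb outward the order turned. The 10Q library held 119 junctions at 100 kb to 1 Mb against 75, or 7.16 against 4.93 per 100, an odds ratio of 1.45 (1.07 to 1.98; adjusted p = 0.0216, Fisher exact test). At 1 to 5 Mb it held 152 against 79, an odds ratio of 1.76 (1.32 to 2.36), and at 5 to 20 Mb 176 against 96, an odds ratio of 1.68 (1.29 to 2.20; adjusted p = 0.000245 for both, Fisher exact test). Beyond 20 Mb the counts were 293 and 183, an odds ratio of 1.47 (1.20 to 1.80; adjusted p = 0.00029, Fisher exact test). The non-targeting library had 0 junctions between 10 kb and 20 Mb and 8 beyond 20 Mb. Intervals of the 4 classes past 100 kb overlap each other, and differences between them were not tested.

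**Figure D2:**
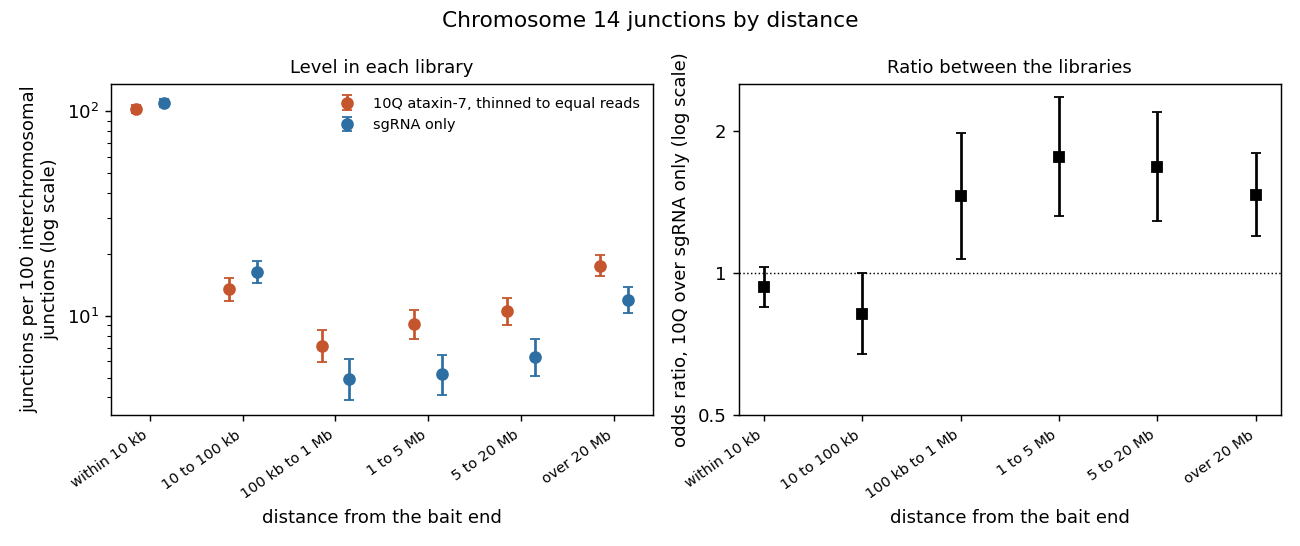
Left, chromosome 14 junctions per 100 interchromosomal junctions (log scale) by distance from the bait end in the 10Q (thinned to equal reads) and sgRNA-only libraries, with 95% intervals. Right, the odds ratio of 10Q over sgRNA only (log scale) with its exact 95% interval, where the points are below 1 up to 100 kb and between 1.45 and 1.76 beyond it.

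The excess lay on both sides of the break and along most of the chromosome. Upstream of the bait end beyond 1 Mb there were 424 junctions with 10Q and 264 with the sgRNA alone, an odds ratio of 1.47 against interchromosomal joints (1.24 to 1.75), and downstream 196 and 94, an odds ratio of 1.91 (1.47 to 2.49). The downstream part of the distant junctions was 31.6% with 10Q and 26.3% with the sgRNA alone, a difference of 5.31 points that did not pass the test (adjusted p = 0.147, Fisher exact test). In bins of 5 Mb beyond 1 Mb, the 10Q share of all junctions was the higher in 23 of 25 bins. The bin from 1 to 5 Mb downstream alone passed the test, 1 of 25 or 4% of bins, with 84 junctions against 40, or 194 against 103 per 10000 (adjusted p = 0.0189, Fisher exact test). Next to it, at 5 to 10 Mb downstream, the counts were 36 and 15, and in the mirror bin 1 to 5 Mb upstream 68 and 39, neither past the test (adjusted p = 0.139 and 0.157, Fisher exact test). The downstream bin holds Klf12, described below, and without the junctions in that gene 0 bins passed the Fisher exact test (smallest adjusted p = 0.207), while the share beyond 1 Mb still differed by 7.59 points. At a mapping quality of 30 or without shared positions the number of bins past the test was also 0, and counted as reads it was 5. With junctions of 2 or more reads a different bin passed, at 15 to 20 Mb upstream, with 10 junctions against 0 (adjusted p = 0.0482, Fisher exact test).

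**Figure D3:**
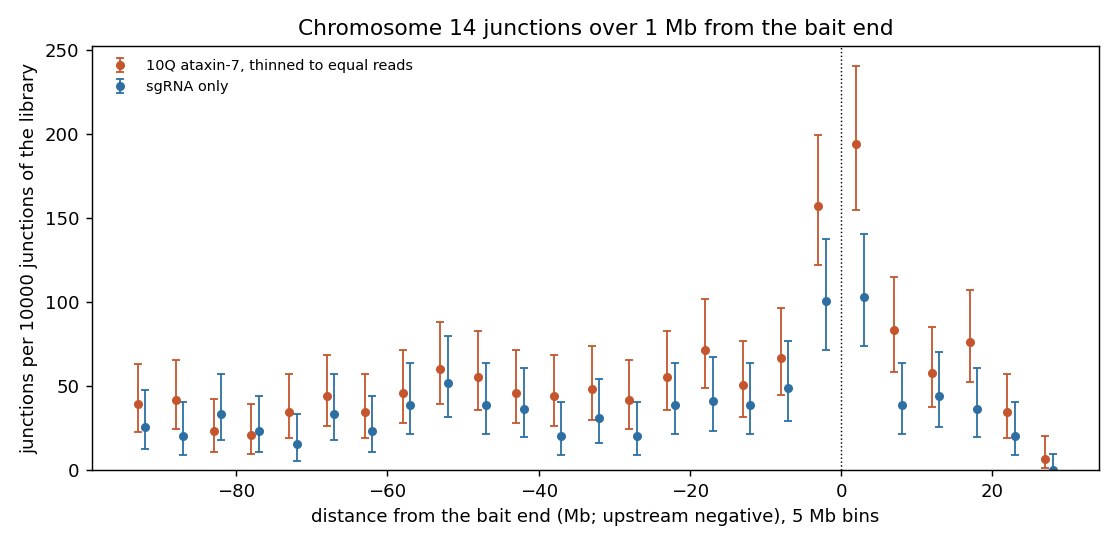
Chromosome 14 junctions over 1 Mb from the bait end per 10000 junctions of the library, in 5 Mb bins by distance (negative upstream), with exact 95% intervals. The 10Q points lie above the sgRNA-only points in 23 of 25 bins, and the highest pair, just downstream of the bait end, stands at 194 and 103.

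Orientation tells how a chromosome 14 prey was attached. Within 10 kb most junctions were plus-strand prey downstream of the bait end, the arrangement left when the break is rejoined with loss of the sequence between. These numbered 1309 with 10Q and 1314 with the sgRNA alone. Minus-strand prey upstream, with its sequence turned round relative to the bait, numbered 258 and 232. Minus-strand prey downstream numbered 91 and 89, and plus-strand prey upstream 43 and 32. The non-targeting library had 16 downstream plus-strand junctions, 2 upstream plus-strand junctions and 0 of either minus-strand kind within 10 kb. Plus-strand prey made up 79.5% of the 10Q junctions within 10 kb and 80.8% of the sgRNA-only junctions, a difference of -1.26 points (-3.95 to 1.44; adjusted p = 0.466, Fisher exact test). All 19 non-targeting junctions there were plus-strand, counting the bait end itself.

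Further out the orientations shifted, past an even split over 1 to 20 Mb and then close to it beyond 20 Mb. Both libraries were alike in this within their intervals. The share of prey running toward the bait, plus-strand upstream or minus-strand downstream, was 26.3% with 10Q and 24.0% with the sgRNA alone at 10 to 100 kb, and 48.7% and 44.0% at 100 kb to 1 Mb. At 1 to 5 Mb it was 57.9% (88 of 152, 49.6 to 65.8) and 67.1% (53 of 79, 55.6 to 77.3). At 5 to 20 Mb it was 61.4% (108 of 176, 53.7 to 68.6) and 60.4% (58 of 96, 49.9 to 70.3). The intervals of 10Q at 1 to 5 Mb and of sgRNA only at 5 to 20 Mb thus reached below an even split. The range of 1 to 20 Mb together was a pooled class outside the 5 classes adjusted together. In it the share running toward the bait was 59.8% with 10Q (54.2 to 65.1) and 63.4% with the sgRNA alone (55.8 to 70.6), both intervals above an even split. Beyond 20 Mb it was 52.9% and 49.7%. None of the 5 classes differed between the libraries past the test (lowest adjusted p = 0.745, Fisher exact test). On the strand alone, 54.1% of 10Q junctions beyond 1 Mb were plus-strand and 47.5% of sgRNA-only junctions, a difference of 6.62 points that did not pass the test with junctions (adjusted p = 0.140, Fisher exact test) and did with reads, at 9.50 points (adjusted p = 0.00147, Fisher exact test).

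**Figure D4:**
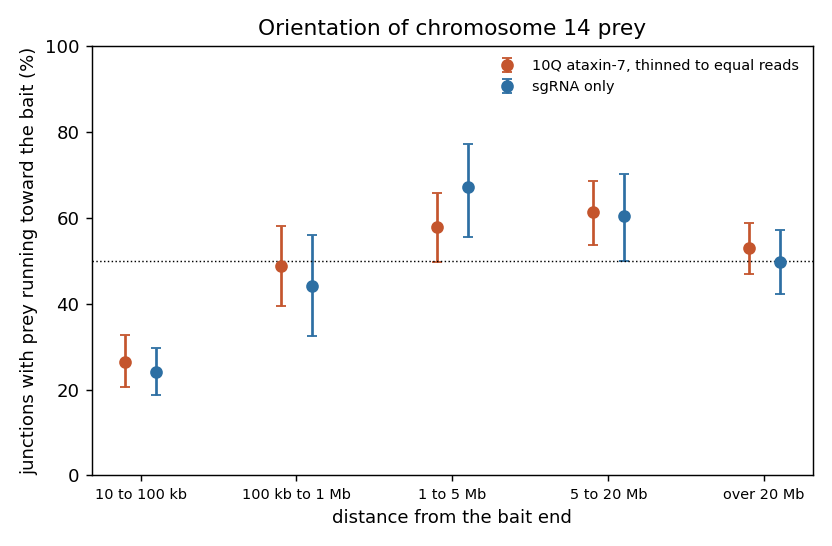
Share of chromosome 14 junctions whose prey runs toward the bait (vertical axis, percent) in 5 distance classes, for the 10Q (thinned) and sgRNA-only libraries, with exact 95% intervals and a dotted line at an even split. The share rises from 26.3% and 24.0% at 10 to 100 kb to about 60% at 5 to 20 Mb, and the intervals of the libraries overlap in every class.

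The distance of plus-strand prey downstream of the bait end, which stands in for resection since the cut was not placed, was close in the 2 libraries when each position was counted once. The median was 1280 bp with 10Q (quartiles 694 and 2657) and 1287 bp with the sgRNA alone (729 and 2737), and 750 bp over the 16 junctions of the non-targeting library. Junctions over 1 kb away were 63.2% of these in the 10Q library (827 of 1309) and 66.6% in the sgRNA-only library (875 of 1314), a difference of -3.41 points (-7.05 to 0.240; adjusted p = 0.147, Fisher exact test). Counted as reads the 10Q joints lay nearer, with a median of 799 bp against 1017 bp. By reads 43.0% with 10Q and 52.1% with the sgRNA alone lay over 1 kb away, and this difference of -9.15 points passed the test (adjusted p = 2.32e-17, Fisher exact test). In upstream minus-strand junctions the median was 2770 bp with 10Q and 2519 bp with the sgRNA alone, and 86.0% and 87.9% lay over 1 kb away (adjusted p = 0.592, Fisher exact test).

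The reads near the bait sat in a few dense stretches that both libraries used to different extents. Between 101 and 500 bp, downstream plus-strand junctions held 28.1% of the 10Q reads and 18.5% of the sgRNA-only reads within 10 kb, and 35.2% and 29.5% of the bases there carried a junction. Between 1001 and 2000 bp the order was the opposite, 24.5% of reads with 10Q and 34.0% with the sgRNA alone, on 35.7% and 40.8% of bases. The stretch between them, 501 to 1000 bp, was alike, with 24.1% and 25.2% of reads. In both libraries junctions were nearly missing from 100 to 300 bp and from 800 to 900 bp, where the sgRNA-only library had 0 and 5 and the thinned 10Q library an expected 0.669 and 3.22.

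Reads at some single positions differed between the libraries, given here at full depth and as shares of all reads within 10 kb. The position 359 bp from the bait end had 145 reads with 10Q and 34 with the sgRNA alone (1.89% and 0.623%). That at 713 bp had 39 and 6 (0.508% and 0.110%). The position at 1307 bp leaned the other way, with 39 and 84 reads (0.508% and 1.54%). By share so did that at 452 bp, with 60 reads in each (0.782% and 1.10%). Each of these positions had 0 reads in the non-targeting library. Leaving out the position at 359 bp, the read difference over 1 kb was -8.52 points (adjusted p = 1.25e-14, Fisher exact test). Counting each position once limits how far the libraries can differ here, since 57.2% of the bases from 1 to 100 bp were already occupied with 10Q and 48.0% with the sgRNA alone. Between 400 and 500 bp, where reads peaked, 91.0 of 100 bases were occupied with 10Q and 83 with the sgRNA alone.

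**Figure D5:**
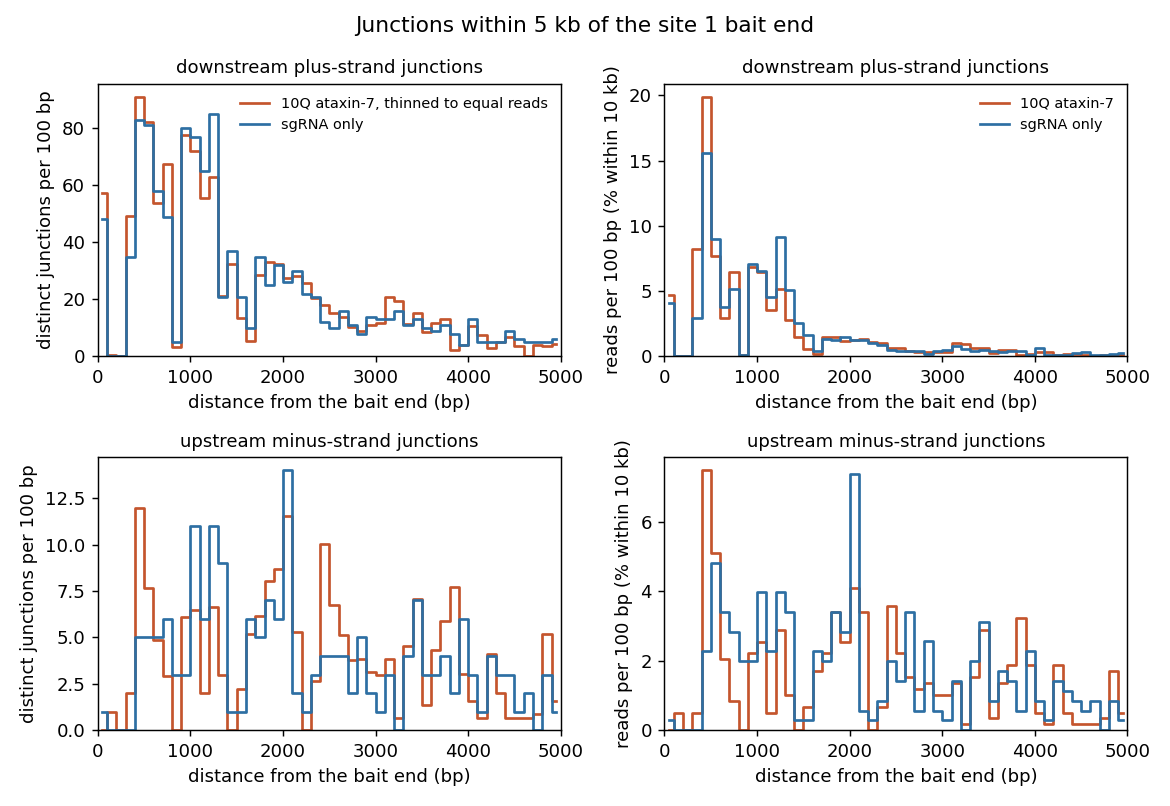
Distance profile within 5 kb of the bait end in 100 bp steps, for downstream plus-strand (top) and upstream minus-strand (bottom) junctions, as distinct junctions (left, 10Q thinned to equal reads) and as percent of that orientation's reads within 10 kb (right). Downstream reads of both libraries peak at 400 to 500 bp, where 10Q stands higher, and the sgRNA-only reads stand higher at 1200 to 1300 bp.

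The 2 libraries reused the same exact positions near the bait and hardly anywhere else. All counts of positions, stacks and reads in this paragraph are at full depth, 13139 reads with 10Q and 8788 with the sgRNA alone. Within 10 kb, 834 positions were common to both, 41.0% of the 2036 with 10Q and 50% of the 1668 with the sgRNA alone. Beyond 1 Mb on chromosome 14 the libraries had 1 position in common, of 812 and 358. On other chromosomes 69 were common, 3.08% of 2243 and 4.53% of 1522, and 41 of these came from 6 short stacks. The stacks held 86 junctions with 10Q and 73 with the sgRNA alone, in stretches of 15 to 84 bp, and 0 in the non-targeting library. The most filled one, chr13:26615401-26615449, had 29 junctions in 120 reads with 10Q and 25 in 115 with the sgRNA alone. No stack had a read above a mapping quality of 17, so the place of these joints in the genome is not certain. Without the stacks the interchromosomal difference was -0.714 points (adjusted p = 0.584, Fisher exact test).

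No single chromosome set the libraries apart in their joints off chromosome 14. Across 20 chromosomes tested, 0 passed the test, which is 0% of them, and 0 had an unadjusted p below 0.05 by the Fisher exact test. The smallest p belonged to X, with 5.48% of interchromosomal junctions with 10Q and 6.96% with the sgRNA alone (p = 0.0903 and adjusted p = 0.918, Fisher exact test). Chromosome 9 leaned the other way, with 4.09% and 3.02% (adjusted p = 0.918, Fisher exact test). Plus-strand prey made up 49.0% of interchromosomal junctions with 10Q and 51.4% with the sgRNA alone, a difference of -2.47 points (adjusted p = 0.250, Fisher exact test).

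Among genes, the bait gene led in both libraries. Inside Dach1 lay 983 junctions of the 10Q library, 887 of the sgRNA-only library and 13 of the non-targeting library. Ahead of its start, within 10 kb, lay 843 and 896. Pibf1, which encodes a centrosomal protein and was the other gene within 1 Mb with at least 5 junctions, held 6 and 5.

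Over 1 Mb away, 23 protein-coding genes held 5 or more junctions in both libraries together, and 1 of them, 4.35%, differed. This was Klf12, a Krüppel-like zinc finger transcriptional repressor, whose body (chr14:99866181-100285891) begins 1.70 Mb downstream of the bait end. It held 19 junctions with 10Q and 2 with the sgRNA alone, against 0 in the non-targeting library (adjusted p = 0.00724, Fisher exact test). At full depth it had 24 with 10Q, from 41 reads, 11 plus-strand and 13 minus-strand, spread over 383 kb with a median gap of 9.10 kb. A read of mapping quality 30 or more backed 19 of the 24. The gene was thus hit along its length and on both strands rather than at 1 position, and it passed the test under each of 8 other settings (adjusted p from 0.00011 to 0.0466, Fisher exact test). Its counts in these libraries were known when the gene test was set up, so this is no independent evidence.

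Some other long genes of chromosome 14 were higher with 10Q by count and others, given further below, were not, none past the test. All chromosome 14 junctions beyond 1 Mb numbered 621 with 10Q and 358 with the sgRNA alone. Klhl1, a kelch-like actin-binding protein of the brain, lay 1.65 Mb upstream and had 13 junctions with 10Q and 4 with the sgRNA alone (adjusted p = 0.628, Fisher exact test). Gpc6 and its neighbour Gpc5, which encode glypicans, heparan sulphate proteoglycans of the cell surface, had 15 and 7 with 10Q against 6 and 2 (adjusted p = 0.673 for both, Fisher exact test). Fhit, a fragile site gene at the far upstream end, had 8 and 3 (adjusted p = 0.673, Fisher exact test). Pcdh9, a protocadherin cell adhesion gene 4.28 Mb upstream, had 11 and 9 (adjusted p = 1, Fisher exact test).

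A second set on the same chromosome had counts of 2 with 10Q and 3 with the sgRNA alone. These were Atp8a2, a phospholipid flippase gene, Mycbp2, a ubiquitin ligase gene of axons, Nrg3, a neuregulin gene, Ptprg, a receptor tyrosine phosphatase gene, and Rarb, a retinoic acid receptor gene. Among them Nrg3 (1108 kb), Ptprg (689 kb), Rarb (651 kb) and Atp8a2 (439 kb) have longer bodies than Klhl1 (414 kb). Samd4, an RNA-binding protein gene, had 2 and 5 (adjusted p = 0.680, Fisher exact test). On other chromosomes the fullest genes were Cfap97d2, with 6 and 6, and Gm364, with 4 and 3, neither backed by a read of mapping quality 30. Chl1, a neural adhesion molecule gene, had 5 and 1, and Dlg2, a synaptic scaffold gene, 1 and 5 (adjusted p = 0.673 for both, Fisher exact test). Kalrn had 4 and 2, and Ccdc18 had 4 and 1. Chl1 and Ccdc18 were not backed by a read of mapping quality 30 in either library. At full depth Dlg2 had 0 junctions so backed with 10Q and 1 with the sgRNA alone, and Kalrn 2 and 0. Dpp6, which encodes a subunit of neuronal potassium channels, had 2 and 3, and was the one named gene off chromosome 14 with a junction, 1, in the non-targeting library. Counts this low do not separate the libraries at this depth.

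The gene lists asked whether repair genes, ataxin-7's own complex or known breakage-prone genes were joined more often as DNA partners, which says nothing of their expression. The 13 end joining genes held 3 junctions with 10Q and 1 with the sgRNA alone, the 13 genes of resection and homologous recombination 2 and 2, and the 10 break signalling genes 0 and 0. The 16 SAGA genes held 1 and 1, which were Trrap, a scaffold subunit, with 10Q and Atxn7 itself, which lies on chromosome 14, with the sgRNA alone. Of 18 common fragile site genes 16 were found in the gene table and 13 of them held a junction, 20 in all with 10Q and 17 with the sgRNA alone. Off chromosome 14 the fragile site genes held 12 and 14, among them Lrp1b, a lipoprotein receptor gene, with 3 and 1. Of 26 long neural genes 19 held a junction, 47 with 10Q and 30 with the sgRNA alone, and off chromosome 14 they held 11 and 10, with Csmd3 at 1 and 2. Their members on chromosome 14 held 36 and 20, beside 621 and 358 for all chromosome 14 junctions beyond 1 Mb.

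At bait site 2, inside Supt16 on the same chromosome, the same contrast could be made at full depth from 104 junctions with 10Q and 575 with the sgRNA alone. The part of chromosome 14 joints within 10 kb was the lower with 10Q at both sites, by -9.23 points at site 1 (61.7% against 70.9%) and by -12.0 points at site 2 (80.4% against 92.4%; 95% interval -25.8 to -2.60). The 2 effects did not differ past the exact test of equal odds ratios (adjusted p = 0.141). The site 2 value rests on 46 chromosome 14 junctions with 10Q, was not thinned to equal reads, and was -4.93 points at a mapping quality of 30 and -7.11 with positions within 5 bp merged.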

How the data were processed

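Translocation sequencing, in which a biotinylated primer beside a Cas9 cut captures whatever DNA the broken end was joined to, was applied to 8 libraries, and the 10Q and sgRNA-only libraries of site 1 were compared. The authors deposited aligned reads, 1 per line, whose only value is a score, the mapping quality from 0 to 42. Per the submitters' processing notes, Bowtie2 and the builds mm9 and mm10 were involved, without versions or roles. How reads were filtered, deduplicated and parted into on-cut and off-cut lists is not given in the sources used. Positions were read as mm10, since sequence names and bait genes match it. The files give no library totals beyond their own reads, so depth is that of the lists.

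Reads with the same chromosome, 5′ end and strand were counted as 1 junction. The 10Q reads were thinned to the sgRNA-only total by the exact hypergeometric expectation, rounded to whole junctions. Reads outside assembled chromosomes were left out. Genes came from a RefSeq table of GRCm38.p6 (21775 protein-coding genes). Shares carry exact Clopper-Pearson 95% intervals, differences Newcombe intervals and odds ratios exact conditional intervals. They cover counting error only, as PCR reads carry no molecular identifiers. Libraries were compared by two-sided Fisher exact tests, adjusted by Benjamini-Hochberg over 9 shares, 6 distance classes, 20 chromosomes, 25 bins or 23 genes, at a threshold of 0.05, and sites by an exact test of equal odds ratios. Tests were tried on simulated data. Python 3.11.15, numpy 2.4.6, pandas 2.3.3, scipy 1.17.1 and matplotlib 3.10.9 were used.

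Named genes were the bait gene, genes within 1 Mb with at least 5 junctions in both libraries together, the 12 fullest genes beyond 1 Mb on chromosome 14 and the 8 fullest elsewhere, genes past the test, and list members with at least 3 junctions, 24 in all, of which 1 is not reported here. The 6 lists were end joining, resection and homologous recombination, break signalling, the SAGA complex, common fragile site genes and long neural genes, of which 94 of 96 genes matched. The libraries, lists and rules were chosen with earlier results of these data known. Alternatives covered thinning, counting reads, mapping quality, merging within 5 bp, read support, shared positions, background positions, distance limits and bin width. Merging ran in chains, each position within 5 bp of the next on its strand, so a dense stretch became 1 junction.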

Additional observations from a re-analysis of the deposited data

Results flagged for a closer look

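The 10Q against sgRNA-only difference in interchromosomal share differed between the 2 bait sites, as found by testing this effect between sites. At full depth the share was 40.5% with 10Q and 39.3% with the sgRNA alone at site 1, a difference of 1.18 points (-0.837 to 3.18). At site 2 it was 55.8% (58 of 104 junctions) and 26.6% (153 of 575), a difference of 29.2 points (18.9 to 39.0). The effect at site 2 exceeded that at site 1 by 28.0 points (exact test of equal odds ratios, adjusted p = 2.19e-07), and by 17.0 points at a mapping quality of 30 or with positions within 5 bp merged (exact test of equal odds ratios, adjusted p = 0.0187 and 0.0112). These values were not thinned to equal reads. At site 2 the 10Q library held 118 reads and the sgRNA-only library 1524 on assembled chromosomes, with 1.13 and 2.65 reads per junction, and at site 1 they held 13139 and 8788, with 2.37 and 2.27. At site 2, 39.0% of 10Q reads and 15.7% of sgRNA-only reads had a mapping quality of 0, against 22.1% and 20.1% at site 1. The site 2 non-targeting library held 59 junctions in 986 reads, more reads than the 10Q library there. The part of depth and mapping quality in the result was not tested. With 1 library per condition, ataxin-7, plasmid load and differences between libraries cannot be told apart.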

How the results depend on the processing

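The share beyond 1 Mb passed the test under each alternative, from 5.23 points (reads) to 11.5 (merged within 5 bp), and the share within 10 kb under each but a limit of 1 kb (-0.353). The ratio of junctions was 1.43 without thinning, 1.17 merged, 1.01 with 2 or more reads and 1.19 without shared positions; counted as reads it is 1 by construction. Values that turned sign, none past the test, were the interchromosomal difference without thinning (1.18), as reads (0.0569) and at a mapping quality of 30 (1.38), the upstream minus-strand part over 1 kb in 1 random draw (0.458) and with limits of 100 bp (0.431) and 3 kb (3.80), the downstream plus-strand part over 1 kb merged (0.677), the plus-strand share within 10 kb without shared positions (0.505), and the difference between sites within 10 kb at a mapping quality of 30 (3.76) and merged (3.03). Calls gained were, as reads, the plus-strand share within 10 kb (-1.53), the downstream plus-strand part over 1 kb (-9.15), the plus-strand and downstream shares beyond 1 Mb (9.50 and 6.43) and the difference between sites within 10 kb (-8.84); with 2 or more reads, the plus-strand share beyond 1 Mb (16.0); without shared positions, the interchromosomal difference (-3.42) and the downstream plus-strand part over 1 kb (-11.2); and the interchromosomal difference in the off-cut list (-8.09). The number of bins past the test was 2 in 1 random draw, 5 as reads, and 0 at a mapping quality of 30, without shared positions or without Klf12. The last of these, the read count without the commonest distant position (-8.52), the removal of the stacks and the split by side were chosen after seeing the data. The causes of these changes were not tested. Merging in chains left 98.9% of downstream plus-strand junctions over 1 kb away with 10Q and 98.2% with the sgRNA alone. By exact position these were 63.2% and 66.6%. The off-cut list leaves out prey near the bait, so its call is not separate from the share beyond 1 Mb. Of the other results, 96 values and 168 of named genes kept direction and side of the threshold, or for counts stayed within 1.5 times. Those of named genes include differences of 0, which show no direction, as for Cfap97d2, Gm364, Chl1 and Ccdc18 at a mapping quality of 30. With 2 or more reads the count of bins stayed at 1, but the bin differed. Some named genes turned sign, none past the test (Dach1 and Pibf1 were not tested), as follows (10Q minus sgRNA only per 10000 junctions). Dach1, at -17.7, was 9.11 in 1 random draw, 341 as reads, 189 with 2 or more reads and 161 without shared positions. Pibf1 was -0.279 without thinning, -2.47 at a mapping quality of 30, -0.855 merged, -0.967 without shared positions and -0.0718 without positions near non-targeting junctions. As reads, Pcdh9 was -2.22, Nrg3 1.15, Rarb 0.392 and Cfap97d2 0.0298. With 2 or more reads, Pcdh9 was -7.85, Fhit -1.49, Atp8a2 2.91, Nrg3 5.79 and Rarb 4.84. Gm364 was -0.806 in 1 random draw and -1.27 merged, Rarb 1.09 and Dpp6 2.74 at a mapping quality of 30, and Pcdh9 -0.162 without shared positions. No paired analysis was possible because each condition had 1 library. With 1 library of 3 pooled transfections per condition, no difference here can be set against the spread between transfections.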

Other observations

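The expanded 92Q library of site 1, which was much shallower at 960 reads, held 0 junctions in Klf12, 1 in Klhl1 and 3 in Gpc6. The 10Q library at equal reads with sgRNA only held 19, 13 and 15 in these genes, and the sgRNA-only library 2, 4 and 6. The 92Q library was not thinned against or compared with them.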
